A study of Oryza sativa with 2 samples.

Results

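Photorespiration is the pathway that recycles 2-phosphoglycolate, the product formed when Rubisco, the carbon-fixing enzyme of the chloroplast, takes oxygen in place of carbon dioxide. Phosphoglycolate phosphatase turns it into glycolate in the chloroplast, glycolate oxidase turns glycolate into glyoxylate in the peroxisome with release of hydrogen peroxide, and glyoxylate is then aminated to glycine. In the mitochondrion the glycine decarboxylase complex, built from P, H, T and L proteins, and serine hydroxymethyltransferase convert glycine into serine with release of carbon dioxide and ammonia. Rice is a C3 plant, in which this pathway is a major flux of illuminated leaves.

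The 9 loci described here were picked by locus ID out of 37896 rows of an expression table, and all 9 IDs were found. The rule sets no threshold on measured values, but the choice was made with earlier results of these data known. In the member list, 4 loci are glycolate oxidases (GLO1, GLO3, GLO4 and GLO5), 1 is the H protein and 2 are P proteins of glycine decarboxylase, 1 is the serine hydroxymethyltransferase SHMT1 and 1 is the phosphoglycolate phosphatase PGLP1. The deposited tables give only locus IDs, and none of the 9 could be matched in the RefSeq genes supplied for Japonica rice (assembly ASM3414082v1). Of all 37895 distinct IDs only 1 matched, so the lack of a match is not particular to these loci. The enzyme names are therefore those of the member list and were not checked against an annotation. For the pair on chromosome 7 the sources differ: the list gives the name GLO4 to the lower-numbered locus LOC_Os07g05820 and GLO5 to LOC_Os07g42440, whereas the RefSeq table places a gene named GLO5 before one named GLO4 along that chromosome. This pair is therefore called by locus ID below.

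Poly(A) RNA from wild-type seedlings of the indica rice cultivar 93-11 was sequenced in 2 libraries, labelled replicate 1 and replicate 2 of a single group. The seedlings were 3 weeks old and came from hydroponic culture (Yoshida solution) with 10 h of light at 800 μmol m-2 s-1 and 14 h of darkness per day. The labels give the tissue as the whole plant, so green and non-green organs contribute to each value, and fewer cells of a type cannot be told apart from less RNA per cell. No label says that the replicates came from separate plants, so some of their spread may be technical. Levels are in FPKM, fragments per kilobase of transcript scaled to the mapped total of the library, a unit per length in which different loci can be set side by side. The tables hold no fragment counts, so the depth is unknown, and the column totals were 741624 FPKM for replicate 1 and 668305 FPKM for replicate 2.

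All 9 photorespiration loci were expressed in both libraries, and most of them stood among the highest loci of the seedling. Each of the 9 was at 1 FPKM or more in both libraries, a level reached by 53.1% of all rows. Means of at least 100 FPKM were found for 6 of the 9, against 2.63% of all rows, and the other 3 had means between 36.5 and 84.4 FPKM. Those 6 loci all lay above the 99th percentile of all rows by mean level, from 99.1 to 99.7, and the remaining 3 lay between 91.5 and 96.8. Among only the rows detected in both libraries, 3 of the 6 stayed above the 99th percentile. Together the 9 loci held 0.356% of the summed FPKM in replicate 1 and 0.298% in replicate 2.

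**Figure D1:**
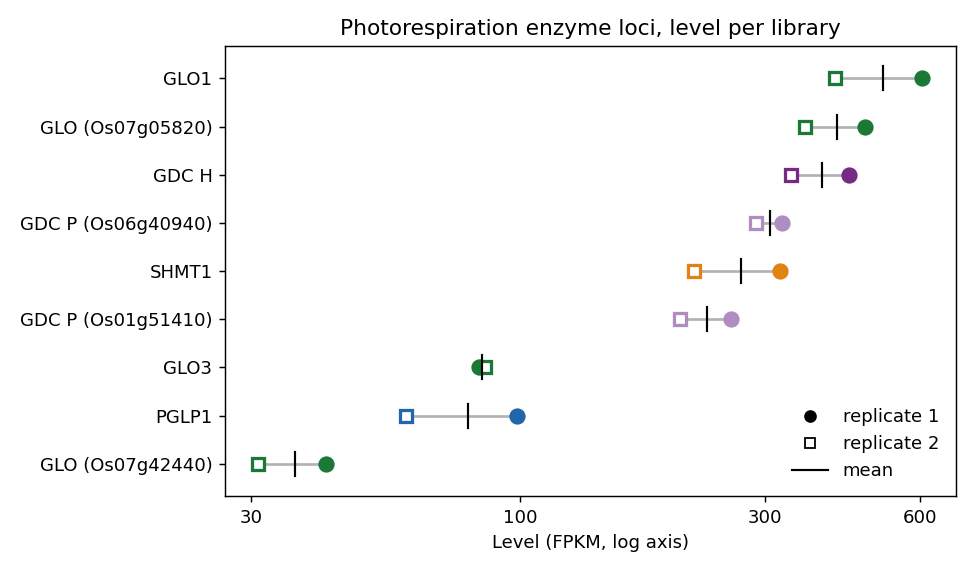
Level of each locus in FPKM on a log axis, with replicate 1 as filled circles, replicate 2 as open squares and the mean as a black bar, coloured by enzyme. GLO1 is highest in both libraries, and a gap separates the 6 loci with means from 231.2 to 508.9 FPKM from the 3 with means under 100 FPKM.

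Phosphoglycolate phosphatase, the entry enzyme of the pathway, was the lowest of the listed enzymes by summed level. It has 1 listed locus, PGLP1, whereas glycolate oxidase was summed over 4. As a single locus, PGLP1 was above LOC_Os07g42440 in both libraries, and its order with GLO3 differed between them. PGLP1 (LOC_Os04g41340, chromosome 4) stood at 98.7 FPKM in replicate 1 against 59.9 FPKM in replicate 2, a mean of 79.3 ± 27.5 FPKM (SD, n = 2). Replicate 1 was the higher library, and the ratio of 1.65 between the deposited values was the largest among the 9 loci. PGLP1 ranked 1297 of all rows by mean level and 106 of the 3317 rows of its chromosome.

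Glycolate oxidase transcripts came mainly from a pair of the 4 loci. GLO1 (LOC_Os03g57220, chromosome 3) stood at 607.2 FPKM in replicate 1 against 410.6 FPKM in replicate 2, a mean of 508.9 ± 139.0 FPKM (SD, n = 2). It was the highest of the 9 loci in both libraries, at rank 131 of all rows. LOC_Os07g05820 on chromosome 7 stood at 470.5 and 358.3 FPKM in replicates 1 and 2, with a mean of 414.4 ± 79.3 FPKM. Its range overlapped that of GLO1, but within each library GLO1 was the higher one, by 1.29 times in replicate 1 and 1.15 times in replicate 2.

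The other glycolate oxidase loci were several times lower. GLO3 (LOC_Os04g53210, chromosome 4) stood at 83.2 FPKM in replicate 1 against 85.6 FPKM in replicate 2, a mean of 84.4 ± 1.69 FPKM (SD, n = 2). It had the closest agreement of the deposited values among the 9 loci and was the only one of them with a higher value in replicate 2. LOC_Os07g42440 on chromosome 7 was the lowest of the 9, with 42.0 and 31.0 FPKM in replicates 1 and 2 and a mean of 36.5 ± 7.82 FPKM. Its partner on the same chromosome, LOC_Os07g05820, was 11.2 times higher in replicate 1 and 11.6 times higher in replicate 2.

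As shares of the summed glycolate oxidase FPKM, GLO1 gave 50.5% in replicate 1 and 46.4% in replicate 2, and LOC_Os07g05820 gave 39.1% and 40.5%. This pair therefore held 89.6% and 86.8% of the sum. GLO3 gave 6.92% and 9.67%, and LOC_Os07g42440 gave 3.49% and 3.50%. The order of the 4 loci was the same in both libraries. Glycolate oxidases are similar proteins, and how fragments that match several copies were assigned is not stated, so the split between the loci carries that uncertainty.

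**Figure D2:**
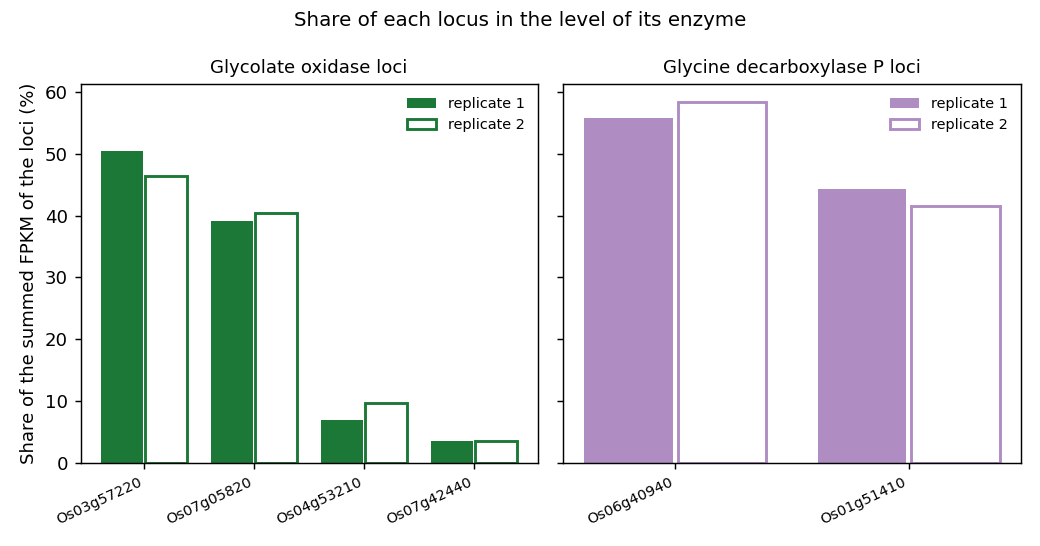
Share in % of the summed FPKM of the 4 glycolate oxidase loci (left) and of the 2 P protein loci of glycine decarboxylase (right), with replicate 1 as filled and replicate 2 as open bars. GLO1 (Os03g57220) and Os07g05820 hold 89.6% and 86.8% of the glycolate oxidase sum, whereas the P protein loci differ less, at 55.8% and 44.2% in replicate 1.

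Both subunits of glycine decarboxylase measured here were abundant. The H protein, which carries the lipoyl arm that shuttles the intermediate between the other subunits, is a single locus of the list (LOC_Os10g37180, chromosome 10). It stood at 437.8 FPKM in replicate 1 against 337.5 FPKM in replicate 2, a mean of 387.7 ± 70.9 FPKM (SD, n = 2), the third level of the 9. On its own chromosome it ranked 7 of 2248 rows, the highest chromosome rank of any of the 9 loci.

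The P protein, the decarboxylating subunit that binds glycine through pyridoxal phosphate, is given by a locus on chromosome 6 and one on chromosome 1. LOC_Os06g40940 stood at 324.4 FPKM in replicate 1 against 288.3 FPKM in replicate 2, a mean of 306.4 ± 25.5 FPKM (SD, n = 2). LOC_Os01g51410 stood at 257.3 and 205.2 FPKM, a mean of 231.2 ± 36.8 FPKM. The ranges of the 2 copies did not overlap, and LOC_Os06g40940 was the higher one in both libraries, with 55.8% of their sum in replicate 1 and 58.4% in replicate 2. As with the oxidases, fragments shared between the copies could shift this split. The 2 copies summed to 581.7 FPKM in replicate 1 against 493.5 FPKM in replicate 2.

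SHMT1, the partner of glycine decarboxylase that adds the one-carbon unit to a further glycine to make serine, stood at 320.4 FPKM in replicate 1 against 217.9 FPKM in replicate 2 (LOC_Os03g52840, chromosome 3). Its mean was 269.1 ± 72.5 FPKM (SD, n = 2), between those of the P protein copies, and its range overlapped both of theirs. In each library SHMT1 was below LOC_Os06g40940, by a factor of 1.01 in replicate 1 and 1.32 in replicate 2, and above LOC_Os01g51410, by 1.25 and 1.06 times.

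Set against each other within a library, where the scaling of the library cancels, the enzymes kept the same order by summed level in both. Glycolate oxidase (4 loci) was highest, followed by P protein (2 loci), then H protein, SHMT1 and PGLP1 (1 locus each). This order depends on the number of listed loci that are summed. As a single locus, H protein was above each of the P protein copies in both libraries. The summed glycolate oxidase level was 1202.9 FPKM in replicate 1 against 885.4 FPKM in replicate 2. It exceeded summed P protein by 2.07 and 1.79 times in replicates 1 and 2, and SHMT1 by 3.75 and 4.06 times. Summed P protein exceeded H protein by 1.33 and 1.46 times, and H protein exceeded SHMT1 by 1.37 and 1.55 times. The ratio of glycolate oxidase to PGLP1 was the widest of the 10 ratios, at 12.2 in replicate 1 and 14.8 in replicate 2. These are ratios of transcript levels, and protein amounts were not analysed here. Loci of the T and L proteins do not enter the ratios. Further H protein loci, entered on a separate and unchecked list of pathway loci, were not summed either. The H protein level is therefore that of 1 locus, and a total for H protein was not computed.

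**Figure D3:**
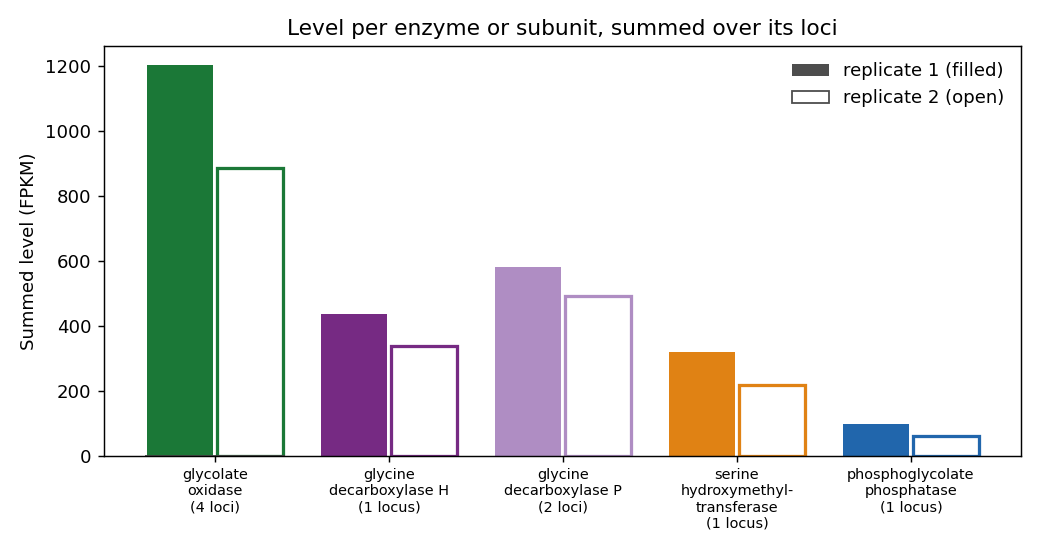
Summed level in FPKM of each enzyme or subunit over its loci, with replicate 1 as filled and replicate 2 as open bars and the number of loci in brackets. Glycolate oxidase, summed over 4 loci, is highest in both libraries (1202.9 and 885.4 FPKM) and phosphoglycolate phosphatase lowest (98.7 and 59.9 FPKM).

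The order of the single loci was nearly the same in both libraries. From high to low by mean it ran GLO1, LOC_Os07g05820, H protein, LOC_Os06g40940, SHMT1, LOC_Os01g51410, GLO3, PGLP1 and LOC_Os07g42440. Of the 36 pairs of loci, 35 had the same order in both libraries, and the exception was GLO3 with PGLP1, where PGLP1 was higher in replicate 1 and GLO3 in replicate 2. Among the 8 pairs of neighbours in this order, 3 had ranges that did not overlap. They lay between H protein and LOC_Os06g40940, between LOC_Os01g51410 and GLO3, and between PGLP1 and LOC_Os07g42440. The ranges of the other 5 pairs overlapped, although 4 of them had the same order within both libraries, such as LOC_Os07g05820 over H protein by 1.07 times in replicate 1 and 1.06 times in replicate 2.

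After both libraries were scaled to the same total, none of the 9 differed more than 2-fold on log2(FPKM + 1). Over the 10366 rows averaging at least 10 FPKM the share was 6.52%, so a count of 0 among 9 loci is near the background. The largest difference was 1.48-fold, at PGLP1, followed by GLO1 at 1.33-fold and SHMT1 at 1.32-fold. The smallest was at LOC_Os06g40940, at 1.01-fold. The median fold between the libraries, regardless of direction, was 1.18 over the 9 loci. It was 1.17 over all rows averaging at least 10 FPKM and 1.25 over those averaging at least 100 FPKM.

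Of the 9 loci, 8 were higher in replicate 1 after this scaling, all but GLO3, against 43.5% of the rows averaging at least 10 FPKM and 49.9% of the 998 rows averaging at least 100 FPKM. As deposited, the same 8 were higher in replicate 1, against 60.7% of the rows averaging at least 10 FPKM. After scaling, the median log2 ratio of replicate 1 over replicate 2 was 0.24 for the 9 loci. It was -0.05 for the rows averaging at least 10 FPKM and -0.0004 for those averaging at least 100 FPKM. These differences compare 1 library with 1 library, so they have no replicate check and carry no test. The share of green tissue in each library was not measured, and its part in the direction was not tested.

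**Figure D4:**
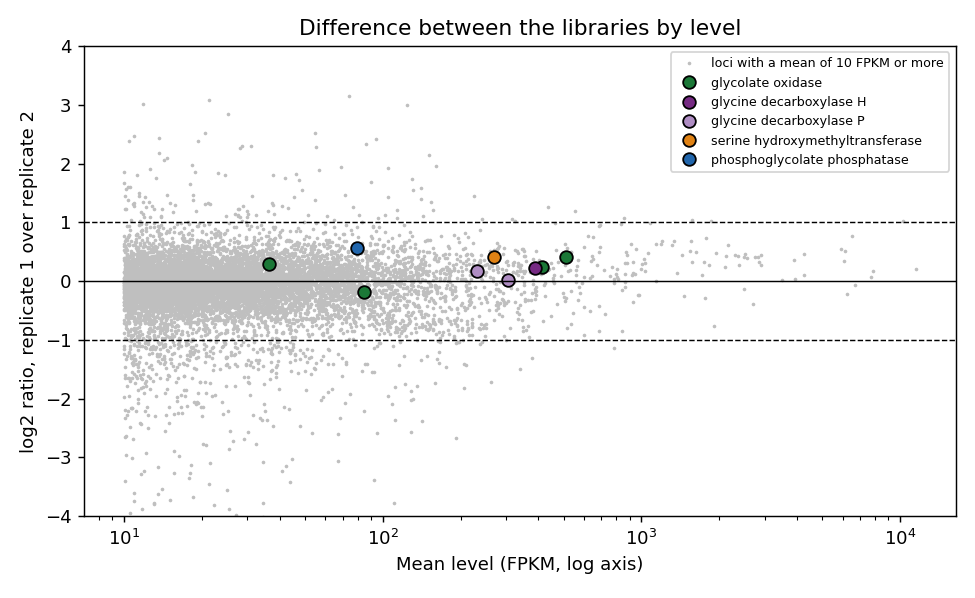
Log2 ratio of replicate 1 over replicate 2 on FPKM + 1 after scaling to the same total, against the mean level in FPKM on a log axis, for 10366 loci (grey; 71 lie outside the axis) and the photorespiration loci (coloured). The coloured points lie inside the dashed lines that mark 2-fold, and 8 of the 9 lie above 0.

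The photorespiration loci lie on 6 chromosomes by their ID codes. Each was compared with the 5 listed loci on either side in order of locus number, 90 neighbours in all, whose median of mean levels was 5.71 FPKM. In both libraries 7 of the 9 exceeded all 10 of their neighbours, against 7.31% of all rows with as many neighbours and 78.7% of such rows averaging at least 100 FPKM. The 7 were the 6 loci averaging at least 100 FPKM, a level at which most loci do so, and PGLP1. With a mean of 79.3 FPKM, PGLP1 lies below that level, and no share was computed for loci at its level. The widest ratio to the highest neighbour was at the P protein locus LOC_Os06g40940, where that neighbour had 6.99 FPKM in replicate 1 against 5.97 FPKM in replicate 2. Around LOC_Os07g05820 the highest neighbour had 49.2 and 37.1 FPKM, and 4 of its 10 neighbours were at 1 FPKM or more in both libraries.

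The exceptions were GLO3 and LOC_Os07g42440. Near GLO3, LOC_Os04g53230 stood at 324.4 FPKM in replicate 1 against 252.3 FPKM in replicate 2, above GLO3 in both libraries. GLO3 exceeded 8 of its 10 neighbours in replicate 1 and 9 in replicate 2. LOC_Os07g42440 exceeded 7 of its 10 neighbours in replicate 1 and 6 in replicate 2. Its highest neighbour had 141.1 and 97.9 FPKM. No annotation used here names the neighbours. LOC_Os04g53230 was entered as a glycine decarboxylase T locus on a further list of pathway loci, and that name was not checked.

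**Figure D5:**
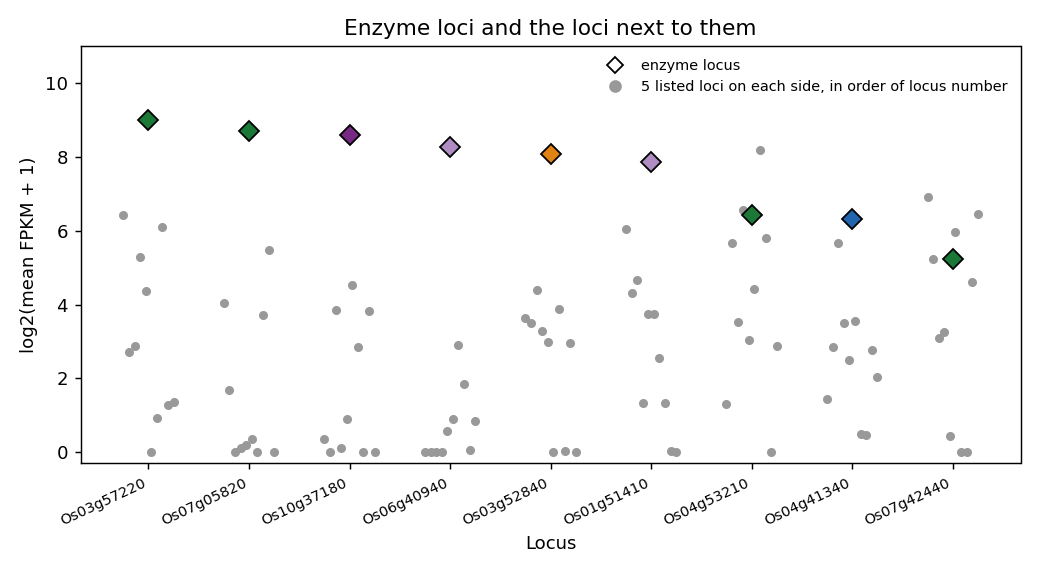
Level as log2(mean FPKM + 1) of each photorespiration locus (coloured diamonds) and of the 5 listed loci on each side of it (grey circles), with loci ordered by mean level. The diamond is the highest point at 7 of the 9 loci, and grey points lie above it at Os04g53210 and Os07g42440.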

How the data were processed

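Each library has its own table, in which the authors deposited FPKM values by locus, per the file headers. TopHat2 and Cufflinks are named in the submitters' processing notes; not given in the sources used here were versions, genome build, annotation and the treatment of fragments with several matches. If the reads were aligned to a japonica genome, divergence of 93-11 could lower a value. In the tables, 5 of the 9 loci carry values of more than 6 significant digits and 4 do not. The digits were counted for these 9 loci only, so how common such values are among all rows is not known here. Whether the longer ones are sums over transcripts is not stated.

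The members and lists were chosen with earlier results of these data known. All 9 loci of the list are named, and no others except LOC_Os04g53230, named after its value was seen. A further list of pathway and tissue marker loci was to be used where the RefSeq table pairs an ID with an enzyme. None of its 14 IDs matched, so it is not reported, and the tissue label was not checked against markers. The members' sequences were not used here.

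Levels are means ± SD over 2 libraries. Ratios between libraries used a pseudocount of 1 after scaling both to the same total, which shifts each log2 ratio (replicate 1 over 2) down by 0.15; scaling by the median of ratios shifts it down by 0.04. With 1 group there was no test. The calculation of ratios was tested on simulated data. Python 3.11.15, numpy 2.4.6, pandas 2.3.3 and matplotlib 3.10.9 were used.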

Additional observations from a re-analysis of the deposited data

How the results depend on the processing

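No paired analysis was possible because the labels define a single group. With 2 libraries, leaving either out gives the other library's value, which the report prints. All 9 loci were detected at thresholds of 0.1, 5 and 10 FPKM, and with totals equalised none differed by over 1.5-fold, or by over 2-fold under any other scaling, level minimum or pseudocount tried. The count of 8 loci higher in replicate 1 was the same as deposited and with the median of ratios. Loci at 100 FPKM or more numbered 6 in either library alone and at a threshold of 200 FPKM, and 8 at 50 FPKM. In replicate 2 alone, LOC_Os01g51410 lay at percentile 98.9, below the 99th. Among rows detected in both libraries the percentiles fell to between 84.1 and 99.3, and LOC_Os01g51410 (98.3), LOC_Os03g52840 (98.6) and LOC_Os06g40940 (98.8) were then below the 99th. At 10 neighbours on each side, chosen after seeing the data, 7 of the 9 exceeded all of them, against 3.70% of all rows and 65.5% of rows averaging at least 100 FPKM. The unknown depth sets no counting interval on any value, and 2 libraries limit the precision of every SD.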
